A study of Mus musculus with 15 samples.

Results

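The 10 genes described here encode 7 matrix metalloproteinases (Mmp2, Mmp3, Mmp9, Mmp11, Mmp13, Mmp19 and Mmp23) and 3 of their tissue inhibitors (Timp1, Timp3 and Timp4). They are a part of the 27 genes of this family that were sought. They were taken by symbol with no threshold on their values, but with earlier results of these data known. All 10 of 10 had a value among the 13513 named genes and 22206 probe sets of the arrays. RNA of 3 groups of mouse heart cells was measured, 5 arrays each and 15 in all. EpiSC are epicardial stromal cells and aCF are activated cardiac fibroblasts, both taken from infarcted hearts 5 days after myocardial infarction. CF are cardiac fibroblasts of unstressed hearts. Every group came from wild-type C57BL/6 mice aged 8 to 12 weeks, the arrays of a group are labelled as biological replicates, and no group of sham-operated mice is named in the labels. EpiSC were shaken off the surface of collagenase-digested hearts, whereas aCF and CF were obtained from digested ventricles without atria, strained and spun to remove heart muscle cells. EpiSC and aCF therefore differ in cell type and in isolation, and aCF and CF differ in infarction and in the shear applied to the heart. EpiSC and CF differ in infarction, cell type and isolation at once. Within each pair these cannot be told apart. In such bulk samples, fewer cells of a type and less RNA per cell cannot be told apart either.

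Matrix metalloproteinases (MMPs) are zinc-dependent enzymes that cut collagens, gelatins, proteoglycans and many cell-surface and secreted proteins. Most are made as inactive pro-forms, and tissue inhibitors of metalloproteinases (TIMPs) block the active enzymes by binding their catalytic site. In the infarcted heart this balance of proteases and inhibitors is known to bear on the removal of damaged matrix, the building of the scar and the widening of the ventricle. The arrays measure RNA, not enzyme activity.

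Each value is a log2 expression measure from which the authors subtracted the probe set's median over the 15 arrays. A value of 0 is thus the middle of the 15 arrays and not absence, and levels of different genes cannot be set against each other. Gene names rest on an inferred displacement between identifiers and values in the deposited table, which no source states and which is described with the processing. Within groups the arrays correlated at 0.551 to 0.671 for EpiSC, 0.213 to 0.54 for aCF and 0.743 to 0.845 for CF, and each of the 5 arrays of a group was nearest to its own group. The mean of the 7 epicardial and mesothelial markers with a value, of 12 sought, lay between 1.54 and 2.33 in EpiSC, between -0.99 and 0.37 in aCF and between -1.26 and -0.31 in CF. These markers did not move as one: Wt1 averaged 1.98 in EpiSC, -0.03 in aCF and -0.20 in CF, whereas Aldh1a2 averaged 0.04, 0.05 and -0.14. The mean of 11 of 12 fibroblast markers lay between -0.43 and -0.03 in EpiSC, between 0.063 and 0.185 in aCF and between -0.19 and -0.10 in CF. Among the aCF arrays, aCF 4 and aCF 5 stood apart: the mean of 9 heart muscle markers was -0.70 and -0.71 there, against 0.07 to 0.33 in aCF 1 to 3. Bonferroni calls that were lost without these 2 arrays are given with that value beside them. Because the values are centred, they show in which group a marker is higher but not whether any group lacks it.

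Timp1 was the member with the largest difference from unstressed fibroblasts, at about 6-fold in EpiSC and 4-fold in aCF. Mmp23 rose 1.50-fold in aCF against CF. The gelatinases ran in opposite directions in EpiSC, with Mmp9 higher and Mmp2 lower than in CF. Mmp3 was lower in aCF than in CF, Mmp11 was lower in EpiSC than in both fibroblast groups, and Timp4 was lower in both infarct groups than in CF. Of these, only the differences of Timp1 and Mmp23 passed limma's moderated test with Bonferroni adjustment over all 22206 probe sets at 0.05, the criterion of the study's design text. The others passed at the same threshold only with the milder Benjamini-Hochberg adjustment, also over the whole table.

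By the Bonferroni criterion 0 of 10 members passed for EpiSC against aCF, where the share of all probe sets was 0.666% (0.401% higher, 0.266% lower), and 7 members had an unadjusted p under 0.05, against 23.9% of all probe sets. For aCF against CF 2 of 10 members rose and 0 fell, where the share of all probe sets was 1.53% (1.21% higher, 0.32% lower). There 8 members had an unadjusted p under 0.05, against 31.1% of all probe sets. For EpiSC against CF 1 of 10 rose and 0 fell, where that share was 2.91% (1.97% higher, 0.941% lower), and 7 had an unadjusted p under 0.05, against 42.7%. With Benjamini-Hochberg adjustment 2 members were higher and 3 lower in EpiSC than in aCF, where the share of all probe sets was 9.61% (4.61% higher, 5.01% lower). By the same adjustment 4 members were higher and 3 lower in aCF than in CF, where 18.1% passed (8.74% higher and 9.38% lower), and 4 were higher and 3 lower in EpiSC than in CF, where 32.2% passed (14.5% higher and 17.7% lower). The median log2 difference of the 10 members was 0.06, 0.04 and 0.02 in these comparisons, taken in the same order, against 0.01, -0.02 and -0.01 for all probe sets, so the family as a whole did not lean one way. The comparisons of aCF and of EpiSC with CF share the CF arrays and are not independent.

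**Figure D1:**
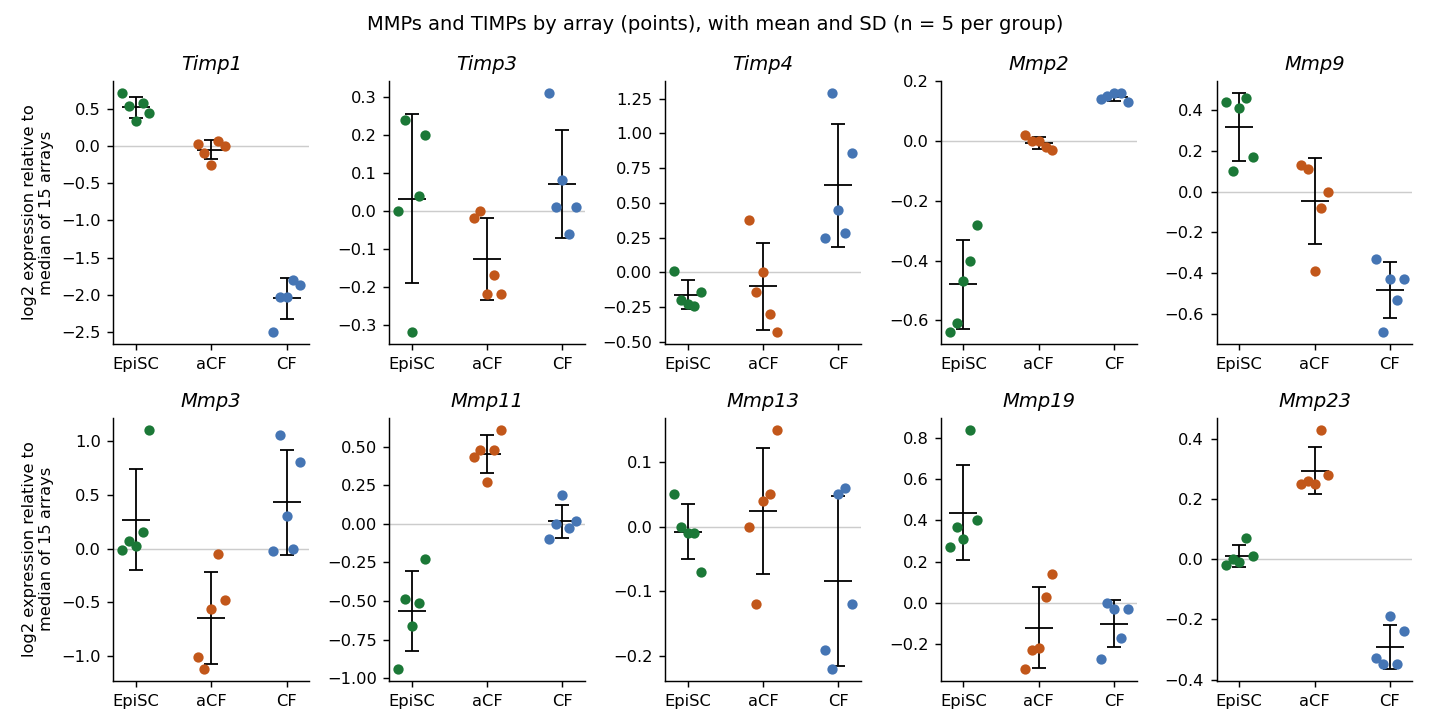
Log2 expression of each member relative to the median of 15 arrays (vertical axis) in EpiSC, aCF and CF, with 1 point per array and the mean and SD of 5 arrays in black. The 5 CF arrays of Timp1 lie between -2.50 and -1.80, below all 10 arrays of infarcted hearts.

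Stretches of sequence directly before a gene start are shown for 3 members, because Mmp3 and Mmp13 lie in the same chromosomal cluster and carry the same pair of elements, while Timp1, the member that differed most, carries neither string there. They are the last 100 bases before the annotated start, from RefSeq on build GRCm38.p6, plus strand: chr9:7445722-7445821 for Mmp3, chr9:7272414-7272513 for Mmp13 and chrX:20870066-20870165 for Timp1. Capitals mark TGANTCA, the AP-1 element, AGGAAG, an element of the Ets type, and TATAAA, the TATA box.
Mmp3: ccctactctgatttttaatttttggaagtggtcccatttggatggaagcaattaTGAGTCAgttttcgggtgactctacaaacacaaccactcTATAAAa
Mmp13: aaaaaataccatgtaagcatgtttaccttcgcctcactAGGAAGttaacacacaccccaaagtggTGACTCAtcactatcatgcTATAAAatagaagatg
Timp1: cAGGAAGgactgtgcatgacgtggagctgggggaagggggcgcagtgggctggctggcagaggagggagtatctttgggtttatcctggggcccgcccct
The AP-1 element begins 46 bases before the annotated start of Mmp3 and 35 bases before that of Mmp13. The TATAAA string begins 7 and 16 bases before these annotated starts. Both strands of 32851 promoters were searched in the same window. TGANTCA was found in 2.73% of them, TATAAA in 5.56%, both together in 0.234% and AGGAAG in 13.8%. No motif overlapped another in the 3 stretches. Promoters of 7 of the 10 members were in the sequence table, and Mmp2, Mmp9 and Mmp19 had none there. A match describes the letters only. Mmp3 and Mmp13 share TGANTCA and TATAAA in this window, and of these only Mmp13 also holds AGGAAG there. A link between these elements and the values was not tested.

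Timp1 encodes a secreted inhibitor that also binds the pro-form of Mmp9, and its gene lies on chromosome X. Its values in EpiSC 1 to 5 were 0.71, 0.53, 0.34, 0.58 and 0.44. In aCF 1 to 5 they were 0.02, -0.10, -0.25, 0.07 and 0.00, and in CF 1 to 5 they were -2.50, -2.03, -2.03, -1.80 and -1.87. The groups did not overlap, with EpiSC highest, aCF next and CF far below both. The means were 0.52 ± 0.14 in EpiSC, -0.05 ± 0.13 in aCF and -2.05 ± 0.27 in CF (SD, n = 5 each). EpiSC exceeded CF by 2.57 ± 0.13 (SE) on the log2 scale, a 5.92-fold difference (limma, Bonferroni-adjusted p = 3.16e-05). The aCF exceeded CF by 1.99 ± 0.12, a 3.98-fold difference (limma, Bonferroni-adjusted p = 0.000238). By size Timp1 ranked 77th of 13513 named genes among those higher in EpiSC than in CF and 68th among those higher in aCF than in CF. Both calls stood in 10 of 10 fits that each left out 1 array, and the aCF call stood without aCF 4 and aCF 5 (1.94, Bonferroni-adjusted p = 0.0187). EpiSC were above aCF by 0.57 ± 0.09, a difference that passed with Benjamini-Hochberg adjustment (limma, adjusted p = 0.00268) and not with Bonferroni adjustment (adjusted p = 1). The genes whose values followed Timp1 most closely over the 15 arrays were H2az1 (Pearson's r = 0.994), the cyclin Ccna2 (0.992) and H2ax (0.991). These r are descriptions over 15 arrays that share 3 group levels, and within groups they were 0.919, 0.689 and 0.846.

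Timp4 encodes the inhibitor known for its expression in the heart. Its values in EpiSC 1 to 5 were 0.01, -0.20, -0.23, -0.24 and -0.14, in aCF 1 to 5 they were 0.38, -0.14, 0.00, -0.30 and -0.43, and in CF 1 to 5 they were 0.25, 1.29, 0.45, 0.28 and 0.86. All EpiSC arrays lay below all CF arrays, whereas aCF 1 at 0.38 lay above CF 1 and CF 4. EpiSC were lower than CF by a log2 difference of -0.79 ± 0.18 (limma, Benjamini-Hochberg-adjusted p = 0.0088). The aCF were lower than CF by -0.72 ± 0.22 (limma, Benjamini-Hochberg-adjusted p = 0.0411). The difference between EpiSC and aCF was -0.06, with a 95% interval of -0.37 to 0.24, and -0.24 without aCF 4 and aCF 5. Timp4 and Timp1 thus differed from CF in opposite directions in both infarct groups, with the Timp4 differences past the milder adjustment only. The mean of the heart muscle markers, 9 of 12 with a value, moved the same way as Timp4. It lay between -0.73 and -0.33 in EpiSC, between -0.71 and 0.33 in aCF and between 0.18 and 0.53 in CF. This list did not move as one. Myl2 averaged -2.18 in EpiSC, -0.65 in aCF and 0.58 in CF, whereas Myl7 averaged 1.69, -0.70 and -0.17. The part of heart muscle cells in the Timp4 values was not tested.

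Timp3, the inhibitor that stays bound to the matrix, did not pass either adjustment in any comparison. Its values lay between -0.32 and 0.24 in EpiSC, between -0.22 and 0.00 in aCF and between -0.06 and 0.31 in CF. The 95% intervals of its log2 differences were -0.08 to 0.40 for EpiSC against aCF, -0.38 to -0.02 for aCF against CF and -0.29 to 0.21 for EpiSC against CF. Changes of 2-fold, a log2 difference of 1, lie outside all 3 intervals.

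The gelatinases Mmp2 and Mmp9 cut denatured collagen and basement membrane collagen. Mmp2 values in EpiSC 1 to 5 were -0.64, -0.61, -0.47, -0.40 and -0.28. In aCF 1 to 5 they were 0.02, 0.00, 0.00, -0.02 and -0.03, and in CF 1 to 5 they were 0.14, 0.15, 0.16, 0.16 and 0.13. The 3 groups did not overlap, and the spread was far narrower in both fibroblast groups (SD 0.02 in aCF and 0.01 in CF) than in EpiSC (SD 0.15). Mmp2 was lower in EpiSC than in CF by -0.63 ± 0.07, a 1.54-fold difference that missed the Bonferroni threshold (limma, Bonferroni-adjusted p = 0.114) and passed the milder one (Benjamini-Hochberg-adjusted p = 0.000136). It was lower in EpiSC than in aCF by -0.47 ± 0.08 (limma, Benjamini-Hochberg-adjusted p = 0.00317), and lower in aCF than in CF by -0.15 ± 0.04 (adjusted p = 0.0311). As a description over the 15 arrays, Mmp2 correlated with the mean of the epicardial markers at r = -0.938 (-0.324 within groups), of 9 of 12 endothelial markers at 0.92 (0.165 within groups) and of the fibroblast markers at 0.579 (0.737 within groups). The endothelial mean lay between -0.762 and -0.556 in EpiSC, between -0.158 and 0.45 in aCF and between 0.224 and 0.602 in CF. Its markers did not move as one. Cdh5 averaged -2.04 in EpiSC, -0.08 in aCF and 0.84 in CF, whereas Ptprb averaged -1.82, 1.27 and 0.13 and Esam 0.52, 0.07 and -0.22. The part of these cell types in the Mmp2 values was not tested. The genes most like Mmp2 over the 15 arrays were Thsd7a (r = 0.987), Slfn5 (0.981) and Plxdc2 (0.978).

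Mmp9 values in EpiSC 1 to 5 were 0.44, 0.10, 0.41, 0.46 and 0.17. In aCF 1 to 5 they were 0.13, 0.11, -0.39, -0.08 and 0.00, and in CF 1 to 5 they were -0.33, -0.69, -0.43, -0.53 and -0.43. EpiSC and CF did not overlap, and aCF lay between them with some overlap on both sides. EpiSC were higher than CF by 0.80 ± 0.10, a 1.74-fold difference (limma, Bonferroni-adjusted p = 0.148, Benjamini-Hochberg-adjusted p = 0.000164). The aCF were higher than CF by 0.44 ± 0.11 (limma, Benjamini-Hochberg-adjusted p = 0.017), while EpiSC against aCF, at 0.36 ± 0.12, passed neither adjustment (Benjamini-Hochberg-adjusted p = 0.0817). Mmp9 is known as an enzyme that neutrophils store and macrophages make. The mean of 11 of 13 neutrophil markers lay between 0.08 and 0.38 in EpiSC, between -0.06 and -0.01 in aCF and between -0.05 and 0.00 in CF. The list includes Mmp8, which averaged 0.67 in EpiSC, 0.13 in aCF and -0.33 in CF. Among the other markers S100a8 averaged -0.01 in EpiSC, 0.01 in aCF and 0.11 in CF, and Hdc averaged 1.58 in EpiSC, -0.23 in aCF and -0.01 in CF, so the list did not move as one. The mean of 10 of 15 macrophage and monocyte markers lay between -0.25 and -0.03 in EpiSC, between 0.075 and 0.382 in aCF and between -0.177 and 0.068 in CF. The part of either cell type in the Mmp9 values was not tested. Over the 15 arrays Mmp9 and Mmp2 correlated at r = -0.822, against -0.045 within groups, so their opposition is one between groups.

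Mmp3, a stromelysin with broad matrix substrates that can also activate other MMPs, varied most of the 10 members among arrays of a group. Its values in EpiSC 1 to 5 were -0.01, 0.07, 0.03, 0.16 and 1.11, in aCF 1 to 5 they were -1.01, -1.12, -0.56, -0.05 and -0.48, and in CF 1 to 5 they were -0.02, 1.06, 0.31, 0.00 and 0.81. Every aCF array was below every array of the other groups, whereas EpiSC and CF overlapped. The aCF were lower than CF by -1.08 ± 0.26, a 2.11-fold difference (limma, Bonferroni-adjusted p = 1, Benjamini-Hochberg-adjusted p = 0.0154). By size this ranked 111th of 13513 named genes among those lower in aCF. EpiSC were higher than aCF by 0.92 ± 0.26, just outside the milder threshold (limma, Benjamini-Hochberg-adjusted p = 0.0512), and by 0.71 without EpiSC 5. EpiSC against CF gave -0.16, with a 95% interval of -0.76 to 0.44. The most similar genes were Adh1 (r = 0.854), Amy2a4 (0.847) and Adam22 (0.825).

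Mmp13, a collagenase of fibrillar collagen, lies in the same cluster on chromosome 9 and showed no difference in any comparison. Its values lay between -0.07 and 0.05 in EpiSC, between -0.12 and 0.15 in aCF and between -0.22 and 0.06 in CF. The 95% intervals of the log2 difference were -0.17 to 0.11 for EpiSC against aCF, -0.06 to 0.28 for aCF against CF and -0.08 to 0.23 for EpiSC against CF. Without aCF 4 and aCF 5 the differences of Mmp13 involving aCF were 0.02 for EpiSC against aCF and 0.06 for aCF against CF. Whether its RNA was above background on any array cannot be read from centred values.

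The cluster on chromosome 9 holds, in RefSeq order, Mmp13, Mmp12, Mmp1b, Mmp3, Mmp1a, Mmp10, Mmp8, Mmp27, Mmp20 and Mmp7, and all but Mmp27 had a value. The genes on either side of Mmp3 gave other values: Mmp1b differed by 0.02 between aCF and CF and Mmp1a by 0.21, and neither passed an adjustment there, whereas Mmp3 differed by -1.08. Mmp12, the elastase of macrophages, stood high on 3 aCF arrays only, with 0.00, -0.06, 1.12, 0.51 and 1.70 in aCF 1 to 5, against values between -0.30 and 0.09 in CF and between -0.16 and 0.21 in EpiSC. Its difference of 0.74 ± 0.30 between aCF and CF passed neither adjustment (limma, Benjamini-Hochberg-adjusted p = 0.123), and was 0.44 without aCF 4 and aCF 5. Mmp12 was singled out after its values were seen. Mmp8, the collagenase of neutrophils, had 0.04, 0.20, 0.97, 0.29 and 1.85 in EpiSC 1 to 5, 0.22, -0.02, -0.03, 0.47 and 0.00 in aCF 1 to 5, and -0.40, -0.28, -0.24, -0.43 and -0.32 in CF 1 to 5. All CF arrays were thus below all arrays of infarcted hearts. The log2 difference was 1.00 ± 0.30 for EpiSC against CF and 0.46 ± 0.10 for aCF against CF (limma, Benjamini-Hochberg-adjusted p = 0.027 and 0.00913).

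**Figure D2:**
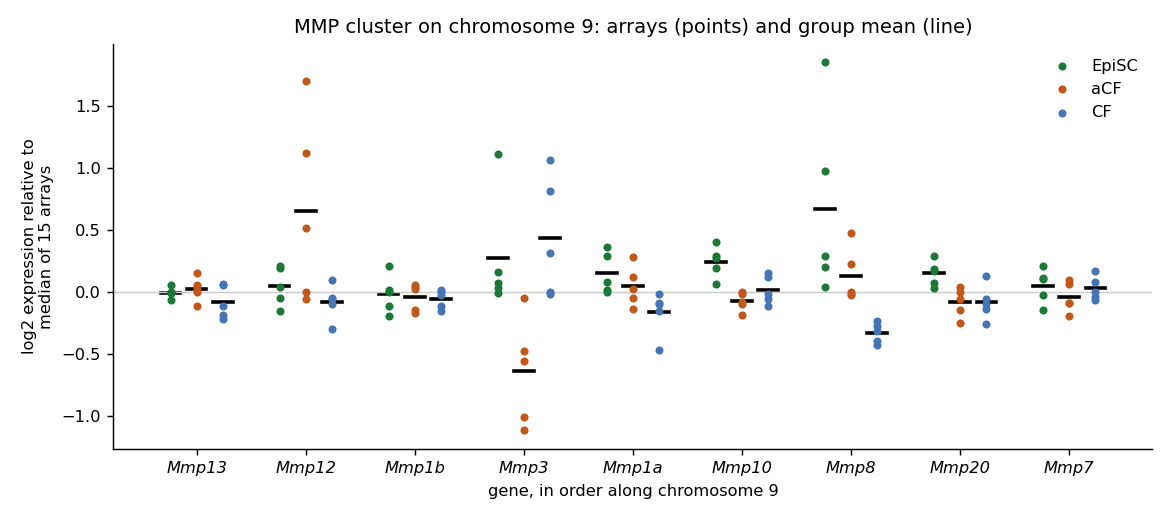
Log2 expression relative to the median of 15 arrays (vertical axis) for the 9 measured MMP genes of the chromosome 9 cluster in their order along the chromosome (horizontal axis), with 1 point per array, coloured by group, and a line at each group mean. Mmp3 is lowest in aCF, Mmp12 is high on 3 aCF arrays, Mmp8 is lowest in CF, and Mmp13, Mmp1b and Mmp7 stay near 0 in all groups.

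Mmp11, a stromelysin released in active form after cleavage by furin inside the cell, separated all 3 groups. Its values in EpiSC 1 to 5 were -0.94, -0.49, -0.66, -0.51 and -0.23. In aCF 1 to 5 they were 0.43, 0.48, 0.27, 0.48 and 0.61, and in CF 1 to 5 they were -0.10, 0.00, 0.19, -0.03 and 0.02. The order was aCF, CF, EpiSC with no overlap. EpiSC were lower than aCF by -1.02 ± 0.12, a 2.03-fold difference that missed the Bonferroni threshold (limma, Bonferroni-adjusted p = 0.158, Benjamini-Hochberg-adjusted p = 0.000672) and passed it in a fit of all 3 groups (Bonferroni-adjusted p = 0.00387). EpiSC were lower than CF by -0.58 ± 0.12 and aCF higher than CF by 0.44 ± 0.08 (limma, Benjamini-Hochberg-adjusted p = 0.00421 and 0.00285). Over the 15 arrays Mmp11 correlated with the mean of the fibroblast markers at r = 0.881 (0.507 within groups), of the epicardial markers at -0.815 (-0.539 within groups) and of 8 of 12 pericyte and smooth muscle markers at 0.809 (-0.074 within groups). The last of these means lay between -1.054 and -0.462 in EpiSC, between 0.43 and 0.858 in aCF and between -0.849 and -0.08 in CF. Its markers were split: Rgs5 averaged -2.70 in EpiSC, 0.88 in aCF and -0.25 in CF, and Cnn1 averaged 0.54, 0.45 and -2.53. The fibroblast list did not move as one: Col1a1 averaged -0.04 in EpiSC, 0.20 in aCF and -0.98 in CF, and Gsn averaged -0.85 in EpiSC, -0.06 in aCF and 1.07 in CF. The part of these cell types in the Mmp11 values was not tested. Its closest genes were Mfge8 (r = 0.987, and 0.912 within groups), the cartilage intermediate layer protein gene Cilp (0.962) and the cathepsin gene Ctsz (0.951).

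Mmp19, which cuts basement membrane proteins, was higher in EpiSC than in both fibroblast groups. EpiSC 1 to 5 had 0.27, 0.37, 0.31, 0.84 and 0.40, aCF 1 to 5 had -0.32, -0.23, -0.22, 0.03 and 0.14, and CF 1 to 5 had -0.27, 0.00, -0.03, -0.17 and -0.03. No EpiSC array overlapped an aCF or CF array, and aCF and CF overlapped throughout. The log2 difference was 0.56 ± 0.13 against aCF and 0.54 ± 0.11 against CF (limma, Benjamini-Hochberg-adjusted p = 0.0214 and 0.00429, Bonferroni-adjusted p = 1 in both). Without EpiSC 4 these values were 0.46 and 0.44. The aCF differed from CF by -0.02, with a 95% interval of -0.24 to 0.20, and by -0.16 without aCF 4 and aCF 5. The closest genes were Ncl (r = 0.945), the urokinase receptor gene Plaur (0.938) and Eif3c (0.920).

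Mmp23, a membrane-bound member cleaved off by furin-like proteases, was the only protease among the 10 to pass the Bonferroni threshold. EpiSC 1 to 5 had -0.02, 0.00, -0.01, 0.07 and 0.01, aCF 1 to 5 had 0.25, 0.26, 0.25, 0.43 and 0.28, and CF 1 to 5 had -0.33, -0.35, -0.19, -0.35 and -0.24. The groups were narrow and fully apart, in the order aCF, EpiSC, CF. It rose in aCF by 0.59 ± 0.06 against CF, a 1.50-fold difference (limma, Bonferroni-adjusted p = 0.0259). This call was lost in 10 of 10 fits without 1 array, where the adjusted p lay between 0.0573 and 0.161 while the difference stayed between 0.55 and 0.61, and without both aCF 4 and aCF 5 (0.55, adjusted p = 0.381). EpiSC were higher than CF by 0.30 ± 0.05 and lower than aCF by -0.28 ± 0.06 (limma, Benjamini-Hochberg-adjusted p = 0.00187 and 0.011). Its closest genes were the Wnt antagonist gene Sfrp2 (r = 0.975), Ada (0.966) and Kif26b (0.965). Within groups these correlations were only 0.362, 0.433 and 0.462.

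**Figure D3:**
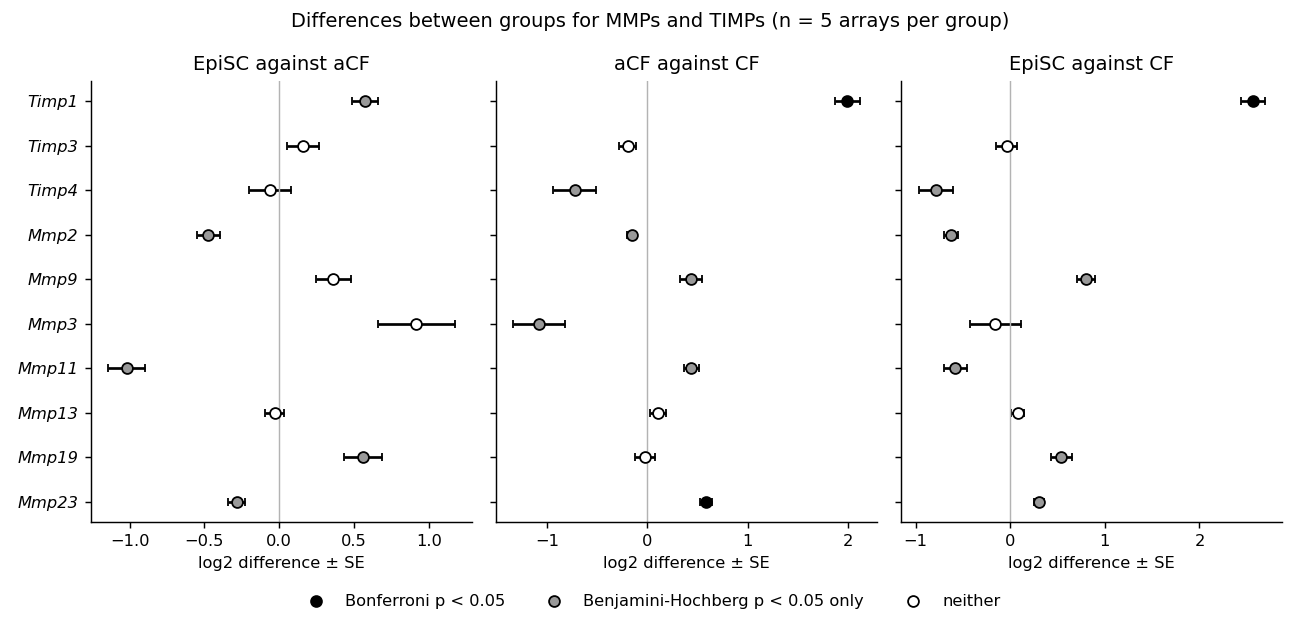
Log2 difference with SE (horizontal axis) for each member in EpiSC against aCF, aCF against CF and EpiSC against CF, 5 arrays per group. Black points passed with Bonferroni adjustment, grey points with Benjamini-Hochberg adjustment only and white points with neither. Timp1 and Mmp23 are the black points, and Timp3 and Mmp13 are white in all panels.

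In exact permutation tests of single members, 5 arrays against 5, the smallest 2-sided p the design allows is 0.0079, and every member whose groups did not overlap reached it. The arrays did not overlap for 6 of 10 members in EpiSC against aCF, 3 higher and 3 lower, as for 12.4% of the 15303 probe sets with an identifier (6.48% higher and 5.91% lower). They did not overlap for 5 members in aCF against CF, 3 higher and 2 lower, as for 17.3% of probe sets (9.92% higher and 7.33% lower), and for 7 in EpiSC against CF, 4 higher and 3 lower, as for 25.1% (14.0% higher and 11.1% lower).

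The rest of the MMP and TIMP family gave few further calls. Counts in this and the following lists stand against the same Bonferroni shares of all probe sets, 0.666% for EpiSC against aCF, 1.53% for aCF against CF and 2.91% for EpiSC against CF. Of 17 other members sought, 11 had a value. Mmp14, Mmp15, Mmp25, Mmp27, Mmp28 and Timp2 were not analysed here. In EpiSC against aCF 1 of 11 passed with Bonferroni adjustment, Mmp16, a membrane-type MMP that can activate the pro-form of Mmp2. It had -0.53, -0.48, -0.84, -0.88 and -0.63 in EpiSC 1 to 5 and 0.54, 0.49, 0.49, 0.41 and 0.38 in aCF 1 to 5, with CF between -0.12 and 0.06. Mmp16 fell in EpiSC by a log2 difference of -1.13 ± 0.09 against aCF (limma, Bonferroni-adjusted p = 0.00279), in 10 of 10 fits that left out 1 array, but not without both aCF 4 and aCF 5 (-1.18, adjusted p = 0.0916). Its order, aCF above CF above EpiSC, was that of Mmp11. Against CF it differed by 0.47 ± 0.06 in aCF and by -0.66 ± 0.09 in EpiSC (limma, Bonferroni-adjusted p = 0.118 and 0.37), and 0 of the 11 passed in either comparison, with 3 of 11 (aCF) and 7 of 11 (EpiSC) at an unadjusted p under 0.05, against 31.1% and 42.7% of all probe sets. The median log2 difference of the 11 was 0.09 for EpiSC against aCF, 0.03 for aCF against CF and 0.13 for EpiSC against CF.

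Adam12, a membrane metalloproteinase of the related ADAM family, differed more from CF than any MMP or TIMP measured. It had 0.06, 0.58, 0.51, 0.64 and 0.32 in EpiSC 1 to 5, -0.27, 0.00, -0.37, 0.35 and 0.47 in aCF 1 to 5, and -3.10, -3.00, -3.45, -2.70 and -2.92 in CF 1 to 5. As with Timp1, all CF arrays lay far below both infarct groups. Adam12 rose by 3.46 ± 0.15 in EpiSC (limma, Bonferroni-adjusted p = 7.08e-06) and by 3.07 ± 0.18 in aCF (adjusted p = 0.000161), and it was 1 of 9 measured ADAM genes to pass in each of these comparisons. Between EpiSC and aCF 0 of 9 passed with limma and Bonferroni adjustment, with 5 at an unadjusted p under 0.05, against 23.9% of all probe sets. The smallest p there were those of Adam9 (-0.44 ± 0.07) and Adam23 (1.02 ± 0.32).

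Of the ADAMTS family of secreted, thrombospondin-repeat proteases and their non-catalytic relatives, 15 of 24 had a value. Adamts3, which removes the amino-terminal propeptide of procollagens, had values between 1.39 and 1.92 in EpiSC, between -0.12 and 0.41 in aCF and between -0.77 and -0.21 in CF. It rose in EpiSC by 1.49 ± 0.15 against aCF (limma, Bonferroni-adjusted p = 0.0271, past the threshold in 2 of 10 fits without 1 array) and by 2.06 ± 0.14 against CF (adjusted p = 0.000495). Adamtsl3, a relative without a protease domain, went the other way, with values between -2.28 and -1.32 in EpiSC, between -0.06 and 0.29 in aCF and between 0.26 and 0.54 in CF. It fell in EpiSC by -1.76 ± 0.16 against aCF (limma, Bonferroni-adjusted p = 0.0141, past the threshold in 3 of 10 such fits) and by -2.13 ± 0.16 against CF (adjusted p = 0.0016). These were the calls of the list in those comparisons, 1 higher and 1 lower in each. With quantile normalization of the arrays the Adamts3 call against aCF was lost (adjusted p = 0.423), and with a trended and robust fit both calls against aCF were (adjusted p = 0.106 for Adamts3 and 1 for Adamtsl3). Without aCF 4 and aCF 5 both calls against aCF were lost (Adamts3 1.38, adjusted p = 0.925, and Adamtsl3 -1.80, adjusted p = 0.473). In aCF against CF 1 of 15 passed, Adamtsl5, which fell by -0.60 ± 0.05 (limma, Bonferroni-adjusted p = 0.00967, past the threshold in 3 of 10 such fits, and adjusted p = 0.119 without aCF 4 and aCF 5). That call was also lost with all 3 groups in one fit (limma, adjusted p = 0.915), with quantile normalization (0.131) and with a trended and robust fit (1).

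Of 20 genes that activate, inhibit or carry MMPs, 15 had a value. Lcn2, a secreted protein that forms a complex with Mmp9, had values between 3.34 and 3.90 in EpiSC, between -0.95 and 0.56 in aCF and between -2.09 and -1.29 in CF. Cd44, a hyaluronan receptor that holds Mmp9 at the cell surface, had values between 2.02 and 2.79 in EpiSC, between -0.21 and 0.60 in aCF and between -1.04 and -0.54 in CF. EpiSC were thus far above both fibroblast groups for Lcn2 and Cd44. Thbs1, described below, did not share this order, with means of 0.04 in EpiSC, 0.44 in aCF and -0.66 in CF. A link of these genes to the Mmp9 values was not tested. Lcn2 rose in EpiSC by 3.76 ± 0.28 against aCF and 5.08 ± 0.16 against CF (limma, Bonferroni-adjusted p = 0.00188 and 3.73e-07), and the call against aCF was lost after quantile normalization (2.97, adjusted p = 0.1). Cd44 rose by 2.43 ± 0.18 and 3.34 ± 0.14 (limma, Bonferroni-adjusted p = 0.00127 and 7.43e-06). Pcsk6, a proprotein convertase, fell in EpiSC by -2.33 ± 0.25 against CF (limma, Bonferroni-adjusted p = 0.0464, past the threshold in 2 of 10 fits without 1 array). Thbs1, a matricellular protein that binds Mmp2 and Mmp9, rose in aCF by 1.10 ± 0.12 against CF (limma, Bonferroni-adjusted p = 0.0381, past the threshold in 2 of 10 such fits, and adjusted p = 0.498 without aCF 4 and aCF 5). The list held 2 genes higher and 0 lower in EpiSC against aCF, 1 and 0 in aCF against CF, and 2 and 1 in EpiSC against CF.

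Reck, a membrane-anchored inhibitor of several MMPs, was chosen for mention after its values were seen. It had -0.72, -0.62, -1.21, -1.05 and 0.14 in EpiSC 1 to 5, 0.38, -0.15, 0.00, -0.26 and -0.22 in aCF 1 to 5, and 0.93, 0.95, 1.10, 0.63 and 1.10 in CF 1 to 5. All CF arrays lay above both infarct groups, the reverse of Timp1. The log2 difference from CF was -1.63 ± 0.22 in EpiSC and -0.99 ± 0.13 in aCF, and neither passed with Bonferroni adjustment (limma, Bonferroni-adjusted p = 0.492 and 0.37, Benjamini-Hochberg-adjusted p = 0.000394 and 0.000599). Each passed in only 1 of 10 fits without 1 array. For EpiSC this was the fit without EpiSC 5 (limma, Bonferroni-adjusted p = 0.00656), and for aCF the fit without aCF 1 (Bonferroni-adjusted p = 0.0326).

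Of 11 collagen-degrading enzymes and uptake receptors outside the MMP family, 6 had a value. The lysosomal cathepsins Ctss and Ctsk rose in aCF against CF, by 1.00 ± 0.08 and 0.91 ± 0.09 (limma, Bonferroni-adjusted p = 0.00213 and 0.0257), with the Ctss call standing in 10 of 10 fits without 1 array and the Ctsk call in 1 of 10. Without aCF 4 and aCF 5 the Ctss call stood (adjusted p = 0.0223) and the Ctsk call did not (adjusted p = 0.175). With a trended and robust fit neither stood (limma, adjusted p = 0.126 for Ctss and 0.581 for Ctsk), and Ctsk also missed the threshold with all 3 groups in one fit (0.0915) and after quantile normalization (0.0521). Ctss had values between 0.64 and 0.97 in aCF and between -0.28 and -0.10 in CF, with EpiSC between -0.28 and 0.31. Ctss is also a known macrophage enzyme, and the mean of the macrophage markers was higher in aCF than in CF as given above. Those markers did not move as one: Lyz2 averaged 0.66 in aCF and -0.37 in CF, and Cd163 averaged -0.14 and -0.04. The part of macrophages in the cathepsin values was not tested. Mrc2, a receptor that takes up collagen fragments, fell in EpiSC by -0.91 ± 0.09 against aCF (limma, Bonferroni-adjusted p = 0.0317, past the threshold in 1 of 10 fits without 1 array, adjusted p = 1 without aCF 4 and aCF 5 and 0.95 with a trended and robust fit). In EpiSC against CF 0 of 6 passed with limma and Bonferroni adjustment, with 4 at an unadjusted p under 0.05 (42.7% of all probe sets), and the smallest p were those of Mrc2 (-0.73 ± 0.09) and Fap, a membrane serine protease of activated fibroblasts (-1.70 ± 0.27).

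**Figure D4:**
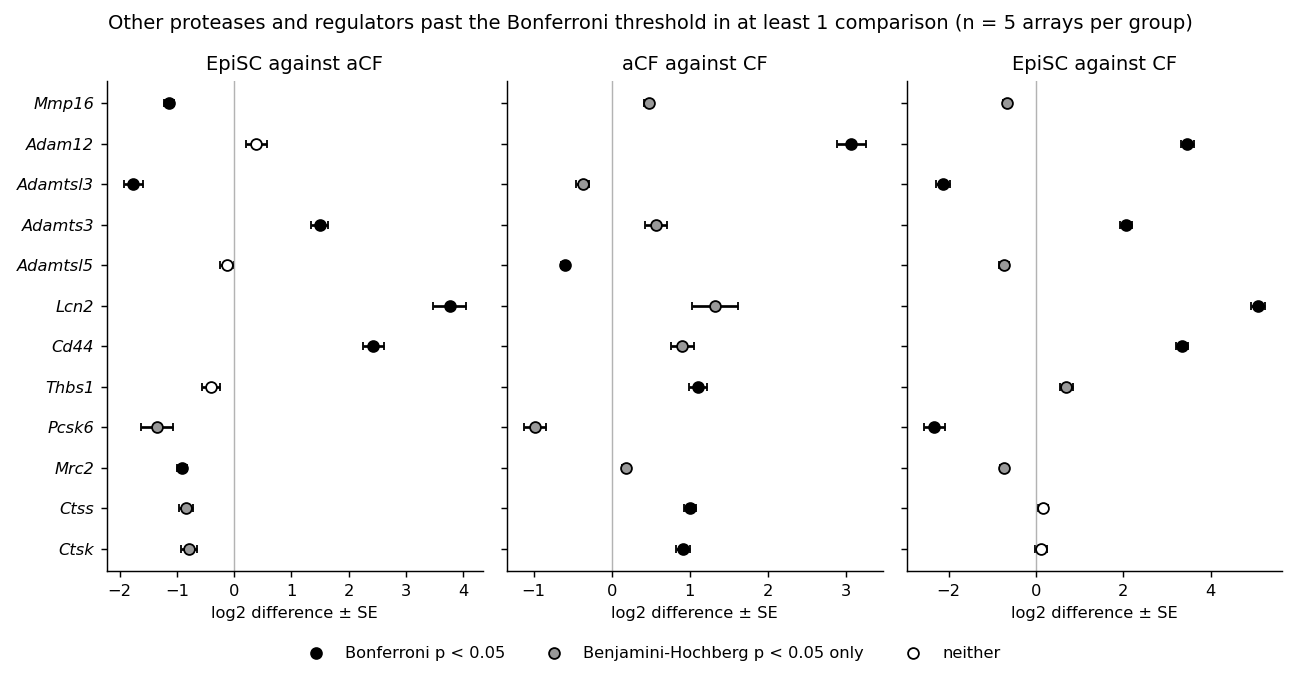
Log2 difference with SE (horizontal axis) of the 12 proteases and regulators outside the 10 members that passed with Bonferroni adjustment in at least 1 comparison, 5 arrays per group. Black points passed with Bonferroni adjustment, grey points with Benjamini-Hochberg adjustment only and white points with neither. Adam12 stands at 3.07 in aCF and 3.46 in EpiSC against CF, and Lcn2 at 5.08 in EpiSC against CF.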

How the data were processed

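The authors' deposited values are log2 expression after subtraction, for each probe set, of its median over 15 arrays. Per the series design text, they came from GeneSpring GX 12.5 with quantile normalization, ExonRMA16 and a baseline to the median; base 2 is inferred from the method and the range, -4.77 to 5.52. Signal over background cannot be read from such values. The number of arrays limits precision.

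The identifier of table row i was given the values of row i + 6900, or i + 6903 for identifiers of chromosomes 10 and 11. No source states this displacement. It was inferred from genes that vary together within groups: 41 cell cycle genes had a mean correlation of 0.2075 at this offset, against 0.0039 as deposited and at most 0.0884 at 9000 other offsets, while 6 chaperone genes did not show it (-0.0009, with 4372 offsets higher). On each member's chromosome it gave the highest correlation of 41 shifts, on 5 to 12 genes. It names 15303 rows by identifier and 13513 genes through the platform annotation.

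The groups compared were fitted by lmFit and eBayes of limma (version 3.58.1, R 4.3.3), 2-sided, with p-values adjusted by Bonferroni over 22206 rows at 0.05. The limma script was tested on simulated data. Of other lists, up to 4 genes per comparison past the threshold are named, largest first, or the 2 with the smallest p. The 3 most correlated genes were sought for each member and are named for Timp1, Mmp2, Mmp3, Mmp11, Mmp19 and Mmp23. Members and lists were chosen with earlier results of these data known.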

Additional observations from a re-analysis of the deposited data

Results flagged for a closer look

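In 30 groups of 5 arrays (10 members in 3 groups), 3 held 1 array farther from the rest than the 95% critical value of Dixon's test, where chance gives about 1 in 20 groups. Mmp3 in EpiSC 5 was 1.11, with the other 4 EpiSC arrays between -0.01 and 0.16. Mmp19 in EpiSC 4 was 0.84, with the others between 0.27 and 0.40. Mmp23 in aCF 4 was 0.43, with the others between 0.25 and 0.28. Without its outlying array, Mmp3 differed between EpiSC and aCF by 0.71 and between EpiSC and CF by -0.37, and Mmp19 by 0.46 and 0.44. Without aCF 4, Mmp23 differed between aCF and CF by 0.55 and between EpiSC and aCF by -0.25.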

How the results depend on the processing

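Over all results and alternatives, 1088 values kept their direction and side of the threshold or, for counts, moved by at most 1.5 times. Another 100 fell short of the threshold, 38 newly passed, 34 changed sign and 52 counts moved by over 1.5 times. Only a result past the threshold in the main fit could fall short, so the 1088 include results that had no call to lose. The cause of the changes was not tested.

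For EpiSC against aCF, 148 probe sets passed, against 2135 with Benjamini-Hochberg adjustment, 369 with all 3 groups in one fit, 97 with a trended and robust fit, 50 without aCF 4 and aCF 5, and 73 to 143 with 1 array left out. For aCF against CF, 340 passed, against 4023, 212 (trended and robust), 144 and 197 to 272. For EpiSC against CF, 647 passed, against 7157, 1060 (all 3 groups in one fit) and 369 to 557. Members past the threshold numbered 0 for EpiSC against aCF, against 5 with Benjamini-Hochberg adjustment, 1 with all 3 groups in one fit and 0 to 0 with 1 array left out. For aCF against CF they numbered 2, against 7 with Benjamini-Hochberg adjustment and 1 with 1 array left out, without aCF 4 and aCF 5, without the fifth of rows with the lowest spread (Mmp23 adjusted p = 0.0661) and with identifiers as deposited. For EpiSC against CF there was 1, against 7 with Benjamini-Hochberg adjustment, 2 with all 3 groups in one fit or with identified rows only (Mmp2 adjusted p = 0.00171 and 0.0476), 2 with a row offset of 6900 for all identifiers (Mmp11 at -1.26), 1 to 2 with 1 array left out (2 without EpiSC 5) and 0 with identifiers as deposited.

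Same-numbered deviations correlated only at 0.019 to 0.154 for EpiSC against aCF, yet 4 of 5 numbers matched best there. For aCF against CF they correlated at -0.009 to 0.156. Whether replicate numbers pair the samples was thus not settled, and the main fits took no pairing into account. With the replicate number as a block, 41, 94 and 166 probe sets passed, with 1 member for aCF against CF. Outside the members, the block fit left short of the threshold Mmp16 (adjusted p = 0.144), Adamtsl3 (0.495), Adamts3 (0.325), Cd44 (0.572) and Mrc2 (0.66) for EpiSC against aCF, Adamtsl5 (0.775), Thbs1 (0.204), Ctss (0.145) and Ctsk (0.266) for aCF against CF, and Adamtsl3 (0.135) and Pcsk6 (0.848) for EpiSC against CF.

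Signs turned as follows. With identifiers as deposited, EpiSC against aCF gave -0.17 for Mmp9, 0.22 for Mmp11, 0.12 for Mmp13, -0.04 for Timp1 and -0.064 for Timp3. The same setting gave, for aCF against CF, -0.44 for Mmp9, -0.052 for Mmp11, 1.10 for Mmp19, -0.02 for Mmp23, -0.092 for Timp1, 0.17 for Timp3 and 1.14 for Timp4 (adjusted p = 0.00242), and for EpiSC against CF 0.28 for Mmp3, -0.62 for Mmp9, 0.17 for Mmp11, -0.17 for Mmp23, -0.13 for Timp1, 0.11 for Timp3 and 0.79 for Timp4. With an offset of 6900 for all identifiers, EpiSC against aCF gave -0.25 for Mmp19 and -0.064 for Timp3, aCF against CF -0.41 for Mmp11 and 0.15 for Timp3, and EpiSC against CF -0.61 for Mmp19 and 0.084 for Timp3. Mmp13 for EpiSC against aCF was 0.02 without aCF 4 and aCF 5, and Timp3 for EpiSC against CF was 0.0105 after quantile normalization. With 1 array left out, Timp4 for EpiSC against aCF lay between -0.145 and 0.0575, Mmp19 for aCF against CF between -0.085 and 0.03 and Timp3 for EpiSC against CF between -0.09 and 0.05.

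Of the genes outside the members, the trended and robust fit lost the calls of Adamtsl3, Adamts3 and Mrc2 for EpiSC against aCF and of Adamtsl5, Ctss and Ctsk for aCF against CF. Their alternatives were added after the data were seen and do not include another row pairing. All gene names rest on the inferred row displacement, and centring hides which probe sets were above background.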
